A study of Ambystoma mexicanum with 12 samples.

Results

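Translation initiation factors were described in axolotl spinal cord across injury and a microRNA-200a inhibitor. They were taken as the 52 rows of the expression table whose human gene symbol begins with EIF and a digit between 1 and 6, among 15091 symbols in all. RNA of 12 libraries was sequenced, 3 in each of 4 groups, from tissue of the axolotl (Ambystoma mexicanum), a salamander that regrows its cord. The 4dpi inhibitor cords were injured, received a miR-200a inhibitor and were collected 4 days post injury, and the 4dpi control cords were injured, received a control inhibitor and were collected at the same time. The uninjured inhibitor cords received the miR-200a inhibitor without an injury, and the uninjured cords had neither an injury nor a named inhibitor. Such inhibitors are synthetic oligonucleotides that pair with a mature microRNA. By the study's methods they were injected into the central canal and taken up after electric pulses, so cells lining the canal were aimed at. The sequenced tissue of injured animals was cord microdissected on both sides of the lesion, with no cell type isolated. By the methods all animals were of the white strain, a pigment mutant, in every group.

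Each library was labelled as a pool of 10 animals, whereas the methods give another number of pooled cords. The labels give animals of 2 to 3 cm for all groups, and the methods give a larger size. The methods describe the RNA-seq of 3 of the 4 groups, and the sequencing of the uninjured inhibitor cords is known from the labels alone. Separately, the paper reports c-Jun expression in uninjured cords treated with the miR-200a inhibitor. The labels do not say whether uninjured cords were injected. Values are given in the order of the replicate numbers, which were 5, 6 and 7 in both inhibitor groups, 1, 5 and 6 in 4dpi control and 1, 2 and 5 in uninjured, where number 2 was given here to the library with no number in its label. Uninjured libraries 1 and 5 hold "Cntl" in their titles, as the 4dpi control libraries do, and uninjured library 2 does not. Whether this word marks a control inhibitor in uninjured cords is not stated. Since each library was a pool, p-values measure the spread between pools.

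Initiation brings a ribosome to the start codon of an mRNA. eIF2 carries the initiator tRNA as a complex with GTP, eIF2B reloads eIF2 with GTP, and the eIF2 kinases slow this by phosphorylating eIF2α under stress. eIF3 is a large scaffold on the small ribosomal subunit, eIF4F binds the cap and unwinds the 5′ leader, and the 4E-BPs block eIF4F when mTOR signaling is low. eIF5B and eIF6 act at subunit joining, and eIF5A, named as an initiation factor, helps elongation and termination. Growing and regenerating tissues regulate protein synthesis through eIF2 phosphorylation and mTOR, which act on proteins and were not measured here.

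Levels were in TPM, the share of a gene in all transcripts of a library corrected for length, so a gene's TPM moves when other genes take more or less of the total. These shares differed between the groups. Cytosolic ribosomal proteins took 15.1 ± 1.45% of TPM in 4dpi inhibitor cords against 9.51 ± 1.91% in 4dpi control cords. They took 16.8 ± 1.40% in uninjured inhibitor cords against 7.97 ± 1.53% in uninjured cords (SD, n = 3 each). The median gene was lower in inhibitor libraries, with a log2 fold change of -0.69 between the injured groups and -1.10 between the uninjured ones. A median-of-ratios scaling, which sets the typical gene equal between libraries, moved these medians to -0.07 and -0.17. Its factors ran between 0.649 and 0.932 in the 6 inhibitor libraries and between 1.08 and 1.77 in the other 6, with no overlap. Results are therefore given in TPM and after this scaling, called scaled values, and members that passed on both scales are put first. The leading principal component took 55.5% of the variance, with uninjured replicate 1 (-159) and 4dpi control replicate 1 (-123) apart at its lower end and the inhibitor libraries between 32.0 and 145. Lists of neuron, ependymoglia, oligodendrocyte, muscle and skin markers were present in every library. In uninjured cords summed muscle markers reached 10977 to 45671 TPM and summed skin markers 1623 to 3141 TPM. Whether a lower TPM of a gene reflects fewer cells of a type or less RNA per cell cannot be told apart in such pools.

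The initiation factors were abundant. Together they made up 12676 ± 551 TPM in 4dpi inhibitor cords against 13137 ± 1079 TPM in 4dpi control cords. In uninjured inhibitor cords they made up 11858 ± 15.7 TPM against 11543 ± 504 TPM in uninjured cords (SD, n = 3 each). These sums were 1.27%, 1.31%, 1.19% and 1.15% of TPM in the same order of groups. Within each injury state, the ranges with and without the miR-200a inhibitor overlapped in TPM. The injured libraries, at 11891 to 13766 TPM, all lay above the uninjured ones, at 10962 to 11872 TPM. That separation by injury was small, was not tested and was not seen in scaled sums, where injured and uninjured libraries of the same inhibitor state overlapped. Scaled sums were 15207 in 4dpi inhibitor cords against 10400 in 4dpi control cords, and 17191 in uninjured inhibitor cords against 8781 in uninjured cords. The size of the inhibitor difference in the total, and in injured cords its sign, depended on the scale.

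Single members covered a wide range. EIF1, EIF3E and EIF2S2 had a mean of over 1000 TPM over the 12 libraries. Of the others, 28 members had 100 to 1000 TPM, 14 had 10 to 100 TPM and 5 had 1 to 10 TPM. The median member had 143 TPM and the highest, EIF1, had 1317 TPM. The top 5, EIF1, EIF3E, EIF2S2, EIF3B and EIF5A, held 41.8% of the summed TPM. EIF3CL and EIF2S3L were under the minimum mean of 1 TPM: EIF3CL was above 0 in 2 libraries and reached 3.02 TPM, and EIF2S3L was above 0 in 3 libraries and reached 4.84 TPM. The other 50 members were tested. EIF2B2, a subunit of eIF2B, passed the minimum mean through 1 library. It had 0.304, 0 and 0 TPM in 4dpi inhibitor cords against 0.711, 2.34 and 0.35 TPM in 4dpi control cords. In uninjured cords it had 0.276, 0 and 0.252 TPM with the inhibitor against 0, 11.1 and 0.437 TPM without. Its log2 fold changes with the inhibitor, -2.60 in injured and -1.83 in uninjured cords, did not pass a test and rest on values near 0.

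**Figure D1:**
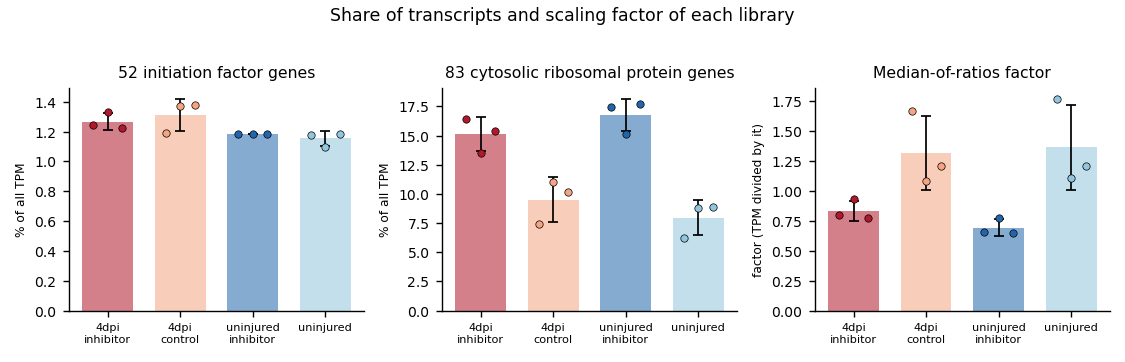
Share of TPM held by the initiation factors and by the cytosolic ribosomal proteins (percent of TPM, bars are group means, lines ± SD, points the 3 libraries of a group), with the scaling factor of each library. The mean factor share lies between 1.15% and 1.31% in the 4 groups while the ribosomal protein share and the scaling factors separate inhibitor from other libraries.

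All tests were limma fits on log2(TPM + 0.1) with 1 term per group, adjusted by Benjamini-Hochberg over 13824 genes, and a change was an adjusted p under 0.05. Errors beside log2 fold changes are standard errors, with 3 libraries in each group. The comparison with most changes was uninjured inhibitor against uninjured, which asks what the inhibitor goes with in the absence of a lesion. Whether uninjured cords were injected is not known, so inhibitor and injection cannot be told apart there. In TPM, 7 of the 50 members were higher and 19 lower, while 7.39% of all genes were higher and 51.1% lower. After scaling, 20 were higher and 5 lower, while 19.4% of all genes were higher and 17.8% lower. The median member had a log2 fold change of -0.20 in TPM and 0.74 scaled, beside -1.10 and -0.17 over all genes. The 7 members higher in TPM and the 5 lower scaled passed on both scales. Over all genes, each of the 1021 higher in TPM also passed scaled, and each of the 2459 lower scaled also passed in TPM. The other scale thus removed none of these calls and is no separate support for them. EIF2S2, EIF3E, EIF3H, EIF3K, EIF3M, EIF4EBP1 and EIF5A rose, and EIF3C, EIF3L, EIF4B, EIF4G1 and EIF4H fell. In TPM, 8 members lay above and 21 below the uninjured libraries with no overlap, against 8.93% and 50.8% of all genes. Without uninjured inhibitor replicate 5 or uninjured replicate 1 the scaled count of higher members was 11 in place of 20, beside 12.5% and 14.9% of all genes in the same fits. That of lower members was 2 without uninjured inhibitor replicate 5 or 7 and 3 without uninjured replicate 2, beside 8.04%, 8.53% and 18.1% of all genes. The 14 other members lower in TPM did not pass after scaling, so their calls rest on TPM alone.

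The same inhibitor was compared with its control after injury (4dpi inhibitor against 4dpi control), which asks what changes in regenerating cord when miR-200a is inhibited. In TPM no member was higher and 3 were lower (EIF2B4, EIF3I and EIF3L), while 0.629% of all genes were higher and 3.19% lower. After scaling no member passed, nor did any gene in either direction (0% higher and 0% lower). At an unadjusted p under 0.05, 4 members were higher and 16 lower in TPM, beside 4.2% and 30% of all genes. Scaled, 11 were higher and 2 lower at this threshold, beside 12.8% and 5.69% of all genes. The median member had a log2 fold change of -0.40 in TPM and 0.24 scaled, beside -0.69 and -0.07 over all genes. The count of lower members in TPM was 11 without uninjured replicate 1, where 17.9% of all genes were lower. It was 7 without 4dpi inhibitor replicate 6, 4dpi control replicate 5 or uninjured replicate 2, where 5.28%, 8.86% and 11.5% of all genes were lower, and 0 without any other single library. Without 4dpi control replicate 5, uninjured replicate 1 or uninjured replicate 2, 1 or 2 members were higher, beside 1.55% to 2.32% of all genes. Of the members, 6 lay above and 23 below the 4dpi control libraries with no overlap in TPM, against 6.97% and 49% of all genes.

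The uninjured and the injured comparison share no library, and the 12 members that passed on both scales in uninjured cords were read in injured cords. This reading is not fully separate, since the fits share an estimate of the spread over all libraries. The scaling factors also separated inhibitor from other libraries in both comparisons. All 7 higher members had a positive and all 5 lower members a negative log2 fold change after injury, on both scales. Over all genes this held for 94.2% of 1021 higher genes and 88.4% of 2459 lower genes, so the same sign was usual and not particular to the factors. In TPM the sizes were smaller, with a median of 0.49 for the 7 and -1.37 for the 5, and none of the 12 except EIF3L passed. The 12 were picked by passing in uninjured cords, so smaller sizes in injured cords can follow from that choice.

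**Figure D2:**
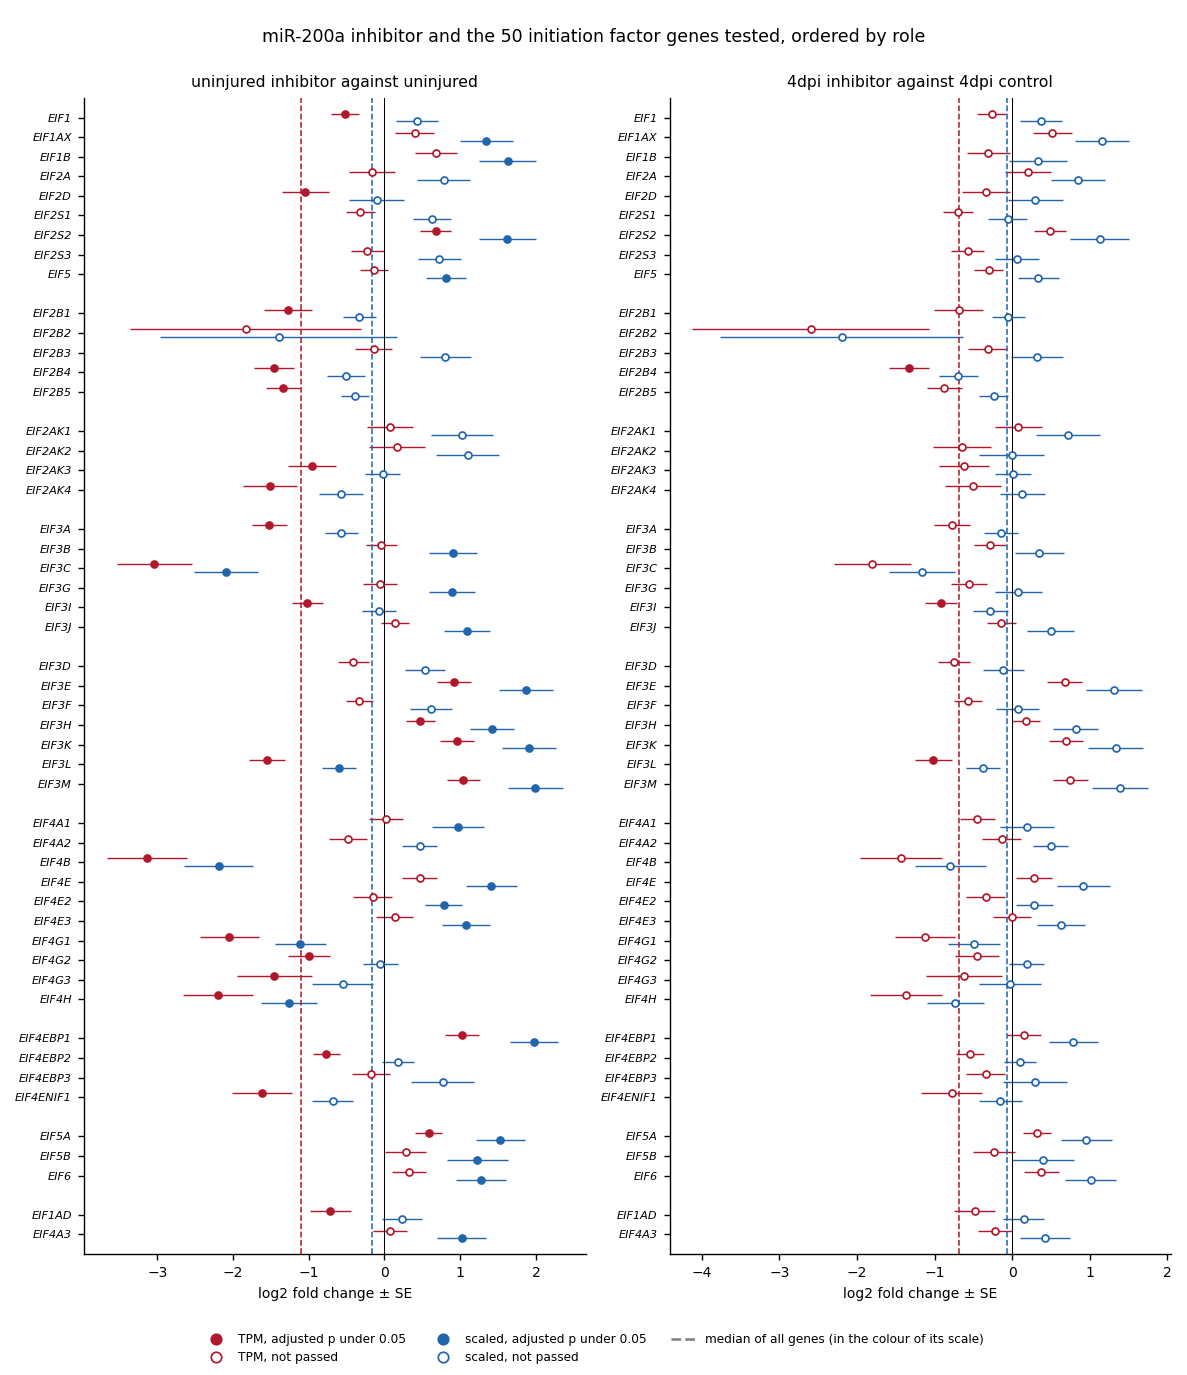
Log2 fold changes of the 50 tested members grouped by role, for the inhibitor comparisons in injured and uninjured cords. Red points are TPM and blue points scaled values, filled points passed at an adjusted p under 0.05, and dashed lines mark the median of all genes. The 7 higher and 5 lower members that passed on both scales in uninjured cords keep their side in injured cords.

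eIF3 showed both directions within 1 complex. Of its 13 tested subunits, 4 were higher and 4 lower in TPM in uninjured inhibitor against uninjured cords, and 7 were higher and 2 lower scaled. Over all genes, 7.39% were higher and 51.1% lower in TPM, and 19.4% higher and 17.8% lower scaled. The subunits that rose on both scales were EIF3E, EIF3H, EIF3K and EIF3M, all outside the core of subunits known from budding yeast. The 7 tested subunits outside this core also include EIF3L, which fell, and EIF3D and EIF3F, which had no call. Of 6 core subunits, 0 were higher and 3 lower in TPM, but 3 were higher and 1 lower scaled. A difference between core and other subunits was not tested. EIF3C, which bridges other factors to the scaffold, and EIF3L, the partner of EIF3K, fell on both scales. EIF3A, the largest core subunit, and EIF3I, a core subunit with WD repeats, were lower in TPM alone.

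EIF3M had 557, 565 and 489 TPM in uninjured inhibitor cords against 237, 237 and 314 TPM in uninjured cords. EIF3M libraries did not overlap, and the log2 fold change was 1.04 ± 0.22 in TPM (adjusted p = 0.00334) and 1.99 scaled (adjusted p = 0.00329). After injury it had 675, 518 and 621 TPM in 4dpi inhibitor cords against 259.9, 442 and 397 TPM in 4dpi control cords. EIF3M libraries did not overlap, and the log2 fold change was 0.75 ± 0.22 in TPM (adjusted p = 0.0599) and 1.39 scaled (adjusted p = 0.0966), without passing. EIF3E, a subunit next to EIF3D in the scaffold, had 1526, 1646 and 1300.4 TPM in uninjured inhibitor cords against 789.6, 612 and 995 TPM in uninjured cords. EIF3E libraries did not overlap, and the log2 fold change was 0.92 ± 0.22 in TPM (adjusted p = 0.00572) and 1.87 scaled (adjusted p = 0.0036). In injured cords it had 1839, 1414 and 1709 TPM with the inhibitor against 805, 1258 and 1079 TPM with the control. EIF3E libraries did not overlap, and the log2 fold change was 0.67 ± 0.22 in TPM (adjusted p = 0.0743) and 1.31 scaled (adjusted p = 0.0973), again without passing. EIF3K had 302, 291 and 299 TPM in uninjured inhibitor cords against 145, 136 and 182 TPM in uninjured cords. EIF3K libraries did not overlap, and the log2 fold change was 0.96 ± 0.22 in TPM (adjusted p = 0.0045) and 1.91 scaled (adjusted p = 0.00344). In injured cords EIF3K had 338, 252 and 293 TPM with the inhibitor against 132, 219 and 203 TPM with the control. EIF3K libraries did not overlap, and the log2 fold change was 0.70 ± 0.22 in TPM (adjusted p = 0.0674) and 1.33 scaled (adjusted p = 0.0966). EIF3H had 354, 304 and 307 TPM in uninjured inhibitor cords against 237, 195 and 266 TPM in uninjured cords. EIF3H libraries did not overlap, and the log2 fold change was 0.48 ± 0.18 in TPM (adjusted p = 0.0424) and 1.42 scaled (adjusted p = 0.00428). In TPM this call was lost without any 1 of 8 libraries, namely 4dpi inhibitor replicate 5 or 7, 4dpi control replicate 6, any uninjured inhibitor library or uninjured replicate 1 or 2, with adjusted p up to 0.142.

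EIF3C had 16.7, 64.6 and 12.5 TPM in uninjured inhibitor cords against 257, 179.9 and 164 TPM in uninjured cords. Uninjured inhibitor replicate 6 was the highest of its group and still under the lowest uninjured library. EIF3C libraries did not overlap, and the log2 fold change was -3.04 ± 0.50 in TPM (adjusted p = 0.00182) and -2.09 scaled (adjusted p = 0.00428). In injured cords EIF3C had 48.7, 46.7 and 34.6 TPM with the inhibitor against 225, 106 and 141 TPM with the control. EIF3C libraries did not overlap, and the log2 fold change was -1.81 ± 0.50 in TPM (adjusted p = 0.0557) and -1.17 scaled (adjusted p = 0.166). EIF3L had 123, 165 and 99.9 TPM in uninjured inhibitor cords against 413, 390.3 and 313 TPM in uninjured cords. EIF3L libraries did not overlap, and the log2 fold change was -1.55 ± 0.24 in TPM (adjusted p = 0.00181) and -0.60 scaled (adjusted p = 0.0491). The scaled call was lost without any 1 of 9 libraries, with adjusted p up to 0.171, and held without 4dpi control replicate 1, uninjured inhibitor replicate 6 or uninjured replicate 1. EIF3L was also among the calls after injury, with 151, 173 and 143 TPM in 4dpi inhibitor cords against 407, 246 and 309 TPM in 4dpi control cords. EIF3L libraries did not overlap, and the log2 fold change was -1.02 ± 0.24 in TPM (adjusted p = 0.0466) and -0.38 scaled (adjusted p = 0.4).

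EIF3I had 98.8, 124 and 106 TPM in 4dpi inhibitor cords against 249, 163 and 217 TPM in 4dpi control cords. EIF3I libraries did not overlap, and the log2 fold change was -0.92 ± 0.21 in TPM (adjusted p = 0.0458) and -0.28 scaled (adjusted p = 0.558). In uninjured cords it had 106, 143 and 139 TPM with the inhibitor against 273, 269 and 239 TPM without. EIF3I libraries did not overlap, and the log2 fold change was -1.02 ± 0.21 in TPM (adjusted p = 0.00296) and -0.07 scaled (adjusted p = 0.819). Its TPM difference was close to the -1.10 of the median gene. EIF3A had 105, 157 and 96.0 TPM in uninjured inhibitor cords against 401, 338 and 276 TPM in uninjured cords. EIF3A libraries did not overlap, and the log2 fold change was -1.52 ± 0.24 in TPM (adjusted p = 0.00181) and -0.57 scaled (adjusted p = 0.0569). EIF3A had 176, 160.2 and 158 TPM in 4dpi inhibitor cords against 358, 235 and 268 TPM in 4dpi control cords. EIF3A libraries did not overlap, and the log2 fold change was -0.78 ± 0.24 in TPM (adjusted p = 0.0633) and -0.14 scaled (adjusted p = 0.788). EIF3B, the most abundant core subunit, had 674, 635 and 697 TPM in uninjured inhibitor cords against 689, 577 and 822 TPM in uninjured cords. EIF3B had 595, 872 and 610.1 TPM in 4dpi inhibitor cords against 709, 960.2 and 844 TPM in 4dpi control cords. The groups overlapped in both comparisons, and the uninjured log2 fold change was -0.04 in TPM and 0.90 scaled, a scaled call that 8 of the 12 fits without a library lost. Of the remaining subunits, EIF3D, EIF3F, EIF3G and EIF3J passed in neither inhibitor comparison in TPM, with log2 fold changes between -0.75 (EIF3D) and 0.14 (EIF3J). Scaled, EIF3G (0.89, adjusted p = 0.0386) and EIF3J (1.09, adjusted p = 0.0163) were higher in uninjured inhibitor against uninjured cords. These scaled calls held in 6 (EIF3G) and 9 (EIF3J) of the 12 fits without a library. EIF3D and EIF3F had no scaled call in either inhibitor comparison.

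Ratios between members of the same library do not depend on the scaling. The pairs below were chosen after the values were seen and are given without a test. EIF3M was 33.4, 8.75 and 39.3 times EIF3C in uninjured inhibitor cords against 0.923, 1.32 and 1.92 times in uninjured cords. EIF3M was 13.9, 11.1 and 17.9 times EIF3C in 4dpi inhibitor cords against 1.16, 4.15 and 2.81 times in 4dpi control cords. EIF3E was 10.5 to 14.5 times EIF3A in uninjured inhibitor cords against 1.81 to 3.60 times in uninjured cords. EIF3E was 8.83 to 10.8 times EIF3A in 4dpi inhibitor cords against 2.25 to 5.36 times in 4dpi control cords. EIF3K was 1.77 to 2.99 times EIF3L in uninjured inhibitor cords against 0.348 to 0.58 times in uninjured cords. EIF3K was 1.46 to 2.24 times EIF3L in 4dpi inhibitor cords against 0.324 to 0.891 times in 4dpi control cords. In these 3 ratios and in EIF3H over EIF3I the inhibitor libraries lay above the others of the same injury state, with no overlap. Where the first gene lies above and the second below with no overlap, their ratio must separate too. This was so for the 3 ratios in both injury states and for EIF3H over EIF3I in uninjured cords. There the ratios restate the single genes and are no separate support. How often other pairs of genes separate was not tested. The library with the highest scaling factor of its group also had the lowest ratio of EIF3M to EIF3C in 4 of 4 groups, of EIF3E to EIF3A in 3, of EIF3K to EIF3L in 3 and of EIF3H to EIF3I in 2. What the scaling factor stands for, its part in these ratios, and how usual this order is for other pairs of genes were not tested.

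**Figure D3:**
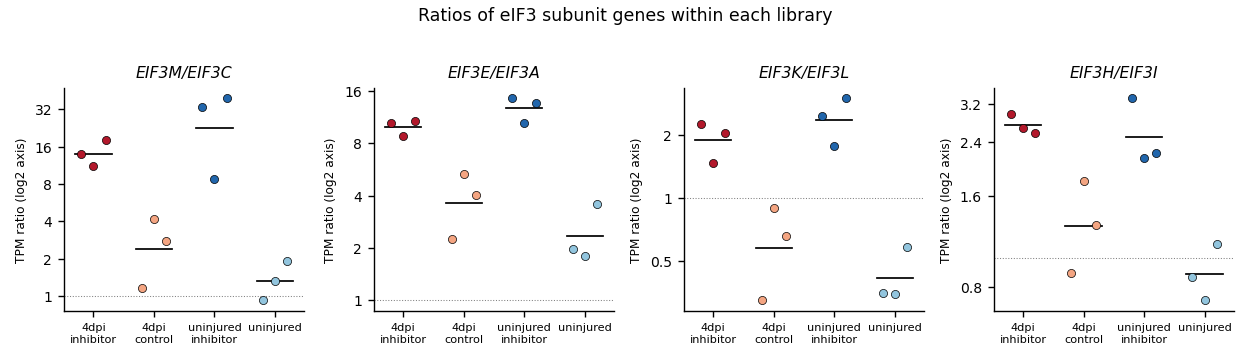
Ratios of EIF3M to EIF3C, EIF3E to EIF3A, EIF3K to EIF3L and EIF3H to EIF3I in each of the 12 libraries (log2 axis, points are libraries, bars geometric means, dotted lines a ratio of 1). In all 4 panels the inhibitor libraries are above the libraries without it in the same injury state. Except for EIF3H to EIF3I in injured cords, this follows from the single genes. EIF3M to EIF3C in uninjured cords spans 8.75 to 39.3 with the inhibitor and 0.923 to 1.92 without.

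In the inhibitor comparisons within an injury state, the eIF4F group and its helpers were lower or had no call in TPM. Of 10 tested members, 5 were lower and none higher in uninjured inhibitor against uninjured cords (EIF4B, EIF4G1, EIF4G2, EIF4G3 and EIF4H). Over all genes, 51.1% were lower and 7.39% higher in TPM, so this count of lower members was near the share of all genes. EIF4B, EIF4G1 and EIF4H were lower after scaling as well, while EIF4A1, EIF4E, EIF4E2 and EIF4E3 were higher after scaling. The scaled shares over all genes were 17.8% lower and 19.4% higher. EIF4B, which stimulates the helicase eIF4A, had the lowest log2 fold change of all members. It had 26.1, 76.3 and 11.2 TPM in uninjured inhibitor cords against 344, 186 and 239 TPM in uninjured cords. EIF4B libraries did not overlap, and the log2 fold change was -3.14 ± 0.53 in TPM (adjusted p = 0.00182) and -2.19 scaled (adjusted p = 0.00496). Uninjured inhibitor replicate 6 was the highest of its group and under every uninjured library. In injured cords EIF4B had 76.3, 75.7 and 61.6 TPM with the inhibitor against 290.5, 146 and 167 TPM with the control. EIF4B libraries did not overlap, and the log2 fold change was -1.44 ± 0.53 in TPM (adjusted p = 0.0932) and -0.80 scaled (adjusted p = 0.395). EIF4H, a second cofactor of eIF4A, had 9.70, 25.9 and 5.70 TPM in uninjured inhibitor cords against 79.5, 38.2 and 46.8 TPM in uninjured cords. EIF4H libraries did not overlap, and the log2 fold change was -2.20 ± 0.46 in TPM (adjusted p = 0.0033) and -1.26 scaled (adjusted p = 0.0215). In injured cords it had 18.9, 23.0 and 20.1 TPM with the inhibitor against 73.6, 44.2 and 46.5 TPM with the control. EIF4H libraries did not overlap, and the log2 fold change was -1.37 ± 0.46 in TPM (adjusted p = 0.0768) and -0.73 scaled (adjusted p = 0.327). EIF4G1, the scaffold that joins cap-binding protein, helicase and eIF3, had 5.99, 9.49 and 5.01 TPM in uninjured inhibitor cords against 34.2, 39.7 and 15.4 TPM in uninjured cords. EIF4G1 libraries did not overlap, and the log2 fold change was -2.05 ± 0.39 in TPM (adjusted p = 0.00238) and -1.11 scaled (adjusted p = 0.0233). In injured cords it had 12.3, 13.1 and 11.8 TPM with the inhibitor against 39.7, 18.9 and 26.9 TPM with the control. EIF4G1 libraries did not overlap, and the log2 fold change was -1.13 ± 0.39 in TPM (adjusted p = 0.081) and -0.49 scaled (adjusted p = 0.489). The scaled calls of EIF4G1 and EIF4H in uninjured cords were lost without uninjured inhibitor replicate 5 or 7, and also without uninjured replicate 2 for EIF4G1 (adjusted p up to 0.0834) and uninjured replicate 1 for EIF4H (up to 0.0795). The library with the highest scaling factor of its group had the highest EIF4H in 4 of 4 groups and the highest EIF4B and EIF4G1 in 3 of 4. The same held for EIF3L in 4 of 4 groups and for EIF3C in 3 of 4. A library's factor is high where its typical gene has a high TPM, so this order follows in part from how the factor is defined. It is no separate result about these members. How usual the order is over all genes was not tested.

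EIF4E, the cap-binding protein itself, had no call in TPM in uninjured inhibitor against uninjured cords and was higher scaled. It had 137, 165 and 107 TPM in uninjured inhibitor cords against 93.6, 109.7 and 89.8 TPM in uninjured cords, where uninjured inhibitor replicate 7 was under uninjured replicate 2. EIF4E libraries overlapped, and the log2 fold change was 0.46 ± 0.23 in TPM (adjusted p = 0.0988) and 1.41 scaled (adjusted p = 0.00915). After injury it had 179, 201 and 196 TPM in 4dpi inhibitor cords against 116, 193 and 178 TPM in 4dpi control cords. EIF4E libraries overlapped, and the log2 fold change was 0.28 ± 0.23 in TPM (adjusted p = 0.378) and 0.91 scaled (adjusted p = 0.173). EIF4E was 17.4 to 22.8 times EIF4G1 in uninjured inhibitor cords against 2.74 to 5.84 times in uninjured cords. EIF4E was 14.5 to 16.6 times EIF4G1 in 4dpi inhibitor cords against 2.91 to 10.2 times in 4dpi control cords. This ratio, too, was chosen after the values were seen. EIF4A1, the helicase most expressed in growing cells, had 423, 304 and 447 TPM in uninjured inhibitor cords against 347, 438 and 362 TPM in uninjured cords. EIF4A1 had 289, 491 and 328 TPM in 4dpi inhibitor cords against 435, 524 and 519 TPM in 4dpi control cords. Both pairs overlapped, and the uninjured difference of 0.02 in TPM was 0.97 scaled, a call that 8 of the 12 fits without a library lost. EIF4A2, the helicase more typical of brain and muscle, had 13.6, 15.3 and 11.1 TPM in uninjured inhibitor cords against 21.9, 14.2 and 20.3 TPM in uninjured cords. EIF4A2 had 11.2, 10.1 and 11.7 TPM in 4dpi inhibitor cords against 13.0, 11.7 and 11.7 TPM in 4dpi control cords, with no call on either scale. EIF4G3, a second eIF4G scaffold, had 1.08, 1.10 and 1.23 TPM in uninjured inhibitor cords against 5.65, 3.42 and 1.80 TPM in uninjured cords. EIF4G3 libraries did not overlap, and the log2 fold change was -1.45 ± 0.49 in TPM (adjusted p = 0.0248) and -0.55 scaled (adjusted p = 0.285). EIF4G3 had 0.837, 1.11 and 1.29 TPM in 4dpi inhibitor cords against 2.05, 1.36 and 1.71 TPM in 4dpi control cords. Its values did not overlap in either pair, but its call was lost without any uninjured inhibitor library or uninjured replicate 1 (adjusted p up to 0.0875).

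**Figure D4:**
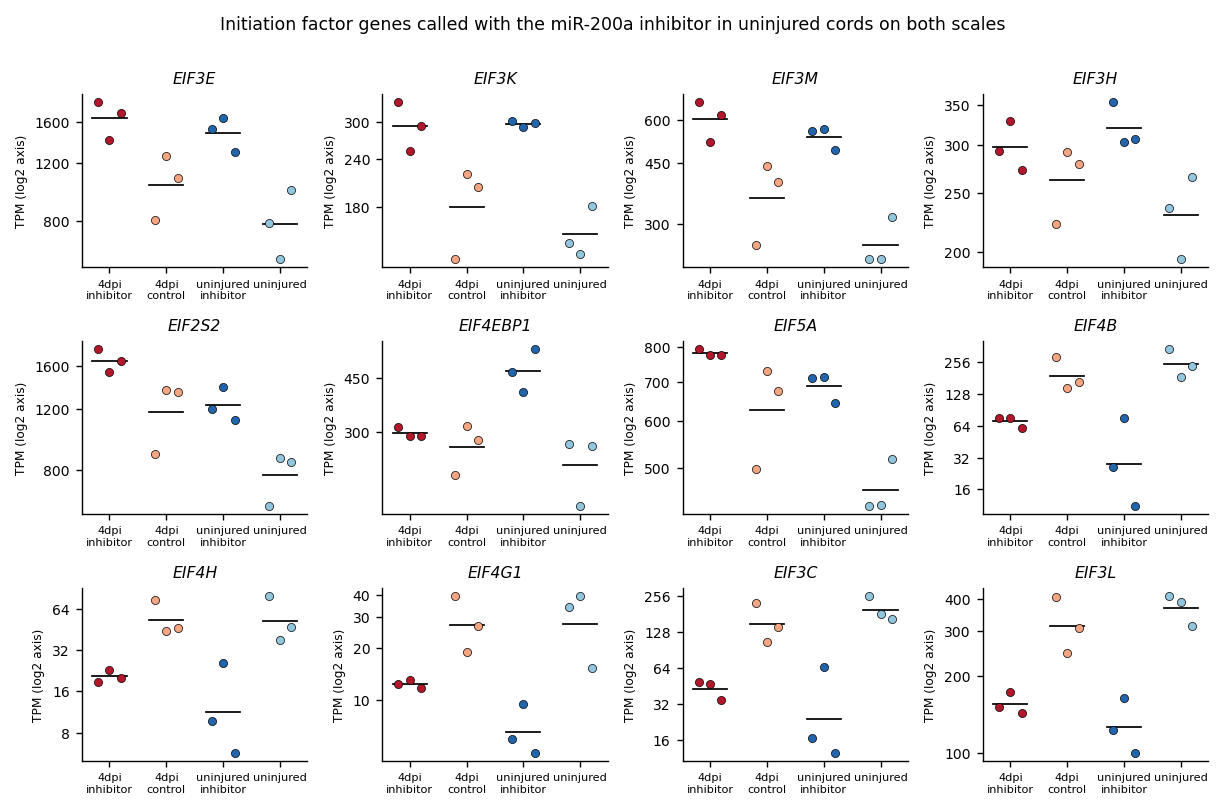
TPM of 12 members in each of the 12 libraries (log2 axis, points are libraries, bars geometric means, groups left to right 4dpi inhibitor, 4dpi control, uninjured inhibitor and uninjured). The 7 members that rose and the 5 that fell with the inhibitor in uninjured cords on both scales are shown, and EIF4B spans 11.2 to 76.3 TPM in uninjured inhibitor cords against 186 to 344 TPM in uninjured cords.

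Among the 4E-BP genes and EIF4ENIF1, EIF4EBP1 was the member with the smallest scaled p in uninjured inhibitor against uninjured cords. EIF4EBP1 encodes 4E-BP1, which holds eIF4E away from eIF4G. It had 473, 404 and 561 TPM in uninjured inhibitor cords against 274, 172 and 269 TPM in uninjured cords. EIF4EBP1 libraries did not overlap, and the log2 fold change was 1.03 ± 0.22 in TPM (adjusted p = 0.00377) and 1.97 scaled (adjusted p = 0.00251). After injury EIF4EBP1 had 311, 290.2 and 290.4 TPM in 4dpi inhibitor cords against 217, 314 and 281 TPM in 4dpi control cords. EIF4EBP1 libraries overlapped, and the log2 fold change was 0.15 ± 0.22 in TPM (adjusted p = 0.615) and 0.79 scaled (adjusted p = 0.205). Whether the inhibitor difference itself differed between injured and uninjured cords was tested as an interaction and did not pass (-0.88 ± 0.32 in TPM, adjusted p = 0.587, and -1.18 scaled, 0.514). The related EIF4EBP2 was lower in uninjured inhibitor cords in TPM, with a log2 fold change of -0.77 (adjusted p = 0.00501) and of 0.18 scaled. EIF4EBP3 had a log2 fold change of -0.18 in TPM and 0.77 scaled, and neither scaled value passed. EIF4ENIF1, which carries eIF4E into the nucleus, was lower in TPM (-1.61, adjusted p = 0.00595) and did not pass scaled (-0.69, adjusted p = 0.0683).

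EIF2S2, the β subunit of eIF2, rose in uninjured inhibitor against uninjured cords, where the α and γ subunits had no call. It had 1199.7, 1392 and 1116 TPM in uninjured inhibitor cords against 629.8, 867 and 841 TPM in uninjured cords. EIF2S2 libraries did not overlap, and the log2 fold change was 0.67 ± 0.20 in TPM (adjusted p = 0.0154) and 1.62 scaled (adjusted p = 0.00787). The TPM call was lost without uninjured inhibitor replicate 6 (adjusted p = 0.0508) or without uninjured replicate 1 (adjusted p = 0.0599). After injury it had 1787, 1531 and 1650.2 TPM in 4dpi inhibitor cords against 891, 1363 and 1345 TPM in 4dpi control cords. EIF2S2 libraries did not overlap, and the log2 fold change was 0.49 ± 0.20 in TPM (adjusted p = 0.121) and 1.13 scaled (adjusted p = 0.136), with no call. EIF2S1, the α subunit that the kinases phosphorylate, had 180.4, 149 and 193 TPM in uninjured inhibitor cords against 218, 221 and 208 TPM in uninjured cords. EIF2S1 had 119.6, 164 and 120.0 TPM in 4dpi inhibitor cords against 233, 185 and 232 TPM in 4dpi control cords. The inhibitor libraries were below in both pairs, with log2 fold changes of -0.32 in uninjured cords and -0.70 in injured cords in TPM and 0.63 and -0.06 scaled, all without a call. EIF2S3, the γ subunit, had log2 fold changes of -0.23 in uninjured and -0.57 in injured cords in TPM, and 0.72 and 0.07 scaled.

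EIF1, which checks start codon recognition and was the most abundant member, had 982, 969.8 and 976 TPM in uninjured inhibitor cords against 1599.7, 1225 and 1394 TPM in uninjured cords. EIF1 libraries did not overlap, and the log2 fold change was -0.52 ± 0.18 in TPM (adjusted p = 0.0287) and 0.43 scaled (adjusted p = 0.229), so the call in TPM turned its sign scaled. The TPM call was lost without any uninjured inhibitor library or uninjured replicate 1 or 5 (adjusted p up to 0.0948). In injured cords EIF1 had 1029, 1571 and 1362 TPM with the inhibitor against 1486, 1519 and 1695 TPM with the control. EIF1 libraries overlapped, and the log2 fold change was -0.27 ± 0.18 in TPM (adjusted p = 0.293) and 0.37 scaled (adjusted p = 0.526). Its paralog EIF1B had 432, 309 and 538 TPM in uninjured inhibitor cords against 299.7, 332 and 176 TPM in uninjured cords. EIF1B libraries overlapped, and the log2 fold change was 0.68 ± 0.28 in TPM (adjusted p = 0.0517) and 1.62 scaled (adjusted p = 0.00727). EIF1B had 287, 211 and 185 TPM in 4dpi inhibitor cords against 244, 295 and 294 TPM in 4dpi control cords. Contigs were named by their best human match, so reads of close paralogs such as EIF1 and EIF1B could be split between them. EIF1AX, which helps scanning, had 491, 379 and 454 TPM in 4dpi inhibitor cords against 227, 396 and 321 TPM in 4dpi control cords. EIF1AX libraries overlapped, and the log2 fold change was 0.52 ± 0.25 in TPM (adjusted p = 0.168) and 1.16 scaled (adjusted p = 0.11). In uninjured inhibitor against uninjured cords its log2 fold change was 0.40 ± 0.25 in TPM, adjusted p = 0.189, and 1.34 scaled, adjusted p = 0.0124.

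eIF2B, the exchange factor that reloads eIF2, was lower in TPM in 3 of its 5 subunits in uninjured inhibitor against uninjured cords (EIF2B1, EIF2B4 and EIF2B5) and in none scaled. Over all genes, 51.1% were lower in TPM and 17.8% scaled in this comparison, so the TPM count is not particular to eIF2B. EIF2B4, the δ subunit, was also 1 of the 3 calls after injury. It had 22.9, 30.4 and 20.4 TPM in 4dpi inhibitor cords against 76.9, 52.7 and 56.4 TPM in 4dpi control cords. EIF2B4 libraries did not overlap, and the log2 fold change was -1.33 ± 0.26 in TPM (adjusted p = 0.0429) and -0.70 scaled (adjusted p = 0.163). In uninjured cords it had 21.4, 25.3 and 31.7 TPM with the inhibitor against 78.1, 82.8 and 55.3 TPM without. EIF2B4 libraries did not overlap, and the log2 fold change was -1.46 ± 0.26 in TPM (adjusted p = 0.00207) and -0.51 scaled (adjusted p = 0.125). EIF2B5, the catalytic ε subunit, had 20.1, 20.1 and 17.9 TPM in 4dpi inhibitor cords against 43.3, 29.4 and 35.1 TPM in 4dpi control cords. EIF2B5 libraries did not overlap, and the log2 fold change was -0.87 ± 0.22 in TPM (adjusted p = 0.0502) and -0.24 scaled (adjusted p = 0.557). EIF2B5 had 15.0, 16.9 and 16.0 TPM in uninjured inhibitor cords against 48.4, 38.5 and 35.4 TPM in uninjured cords. EIF2B5 libraries did not overlap, and the log2 fold change was -1.34 ± 0.22 in TPM (adjusted p = 0.00182) and -0.39 scaled (adjusted p = 0.112). On the scaled values neither subunit passed in either pair. The 3 calls after injury (EIF2B4, EIF3I and EIF3L) were near the threshold and were each kept in 4 of the 12 fits that left out a library. They were lost without 4dpi inhibitor replicate 5 or 7, 4dpi control replicate 1 or 6, any uninjured inhibitor library or uninjured replicate 5, with adjusted p up to 0.208.

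Of the 4 eIF2 kinases, EIF2AK3 and EIF2AK4 were lower in TPM in uninjured inhibitor cords, beside 51.1% of all genes, and none passed scaled. EIF2AK4 (GCN2), the sensor of amino acid shortage, had 6.63, 7.15 and 3.93 TPM in uninjured inhibitor cords against 23.5, 19.2 and 9.88 TPM in uninjured cords. EIF2AK4 libraries did not overlap, and the log2 fold change was -1.51 ± 0.36 in TPM (adjusted p = 0.00542) and -0.57 scaled (adjusted p = 0.139). In injured cords it had 14.7, 12.9 and 11.7 TPM with the inhibitor against 24.8, 14.7 and 17.3 TPM with the control. EIF2AK4 libraries did not overlap, and the log2 fold change was -0.50 ± 0.36 in TPM (adjusted p = 0.312) and 0.13 scaled (adjusted p = 0.864). EIF2AK3 (PERK), the sensor of unfolded proteins in the endoplasmic reticulum, had 4.42, 7.08 and 3.91 TPM in uninjured inhibitor cords against 13.8, 9.16 and 7.27 TPM in uninjured cords. EIF2AK3 libraries did not overlap, and the log2 fold change was -0.96 ± 0.32 in TPM (adjusted p = 0.0237) and -0.02 scaled (adjusted p = 0.95). EIF2AK3 had 8.39, 9.01 and 8.53 TPM in 4dpi inhibitor cords against 15.8, 11.1 and 13.7 TPM in 4dpi control cords. EIF2AK3 libraries did not overlap, and the log2 fold change was -0.63 ± 0.32 in TPM (adjusted p = 0.181) and 0.01 scaled (adjusted p = 0.995). Its uninjured difference was close to that of the median gene, and its TPM call was lost without uninjured inhibitor replicate 5 or 7 or uninjured replicate 1 (adjusted p up to 0.0888). EIF2AK2 (PKR), the sensor of double-stranded RNA, had 12.1, 6.91 and 4.15 TPM in uninjured inhibitor cords against 5.30, 8.35 and 5.53 TPM in uninjured cords. EIF2AK2 libraries overlapped, and the log2 fold change was 0.17 ± 0.37 in TPM (adjusted p = 0.714) and 1.10 scaled (adjusted p = 0.0576). After injury it had 10.6, 12.2 and 8.65 TPM in 4dpi inhibitor cords against 14.2, 15.0 and 20.2 TPM in 4dpi control cords. EIF2AK2 libraries did not overlap, and the log2 fold change was -0.64 ± 0.37 in TPM (adjusted p = 0.227) and -0.01 scaled (adjusted p = 0.996).

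**Figure D5:**
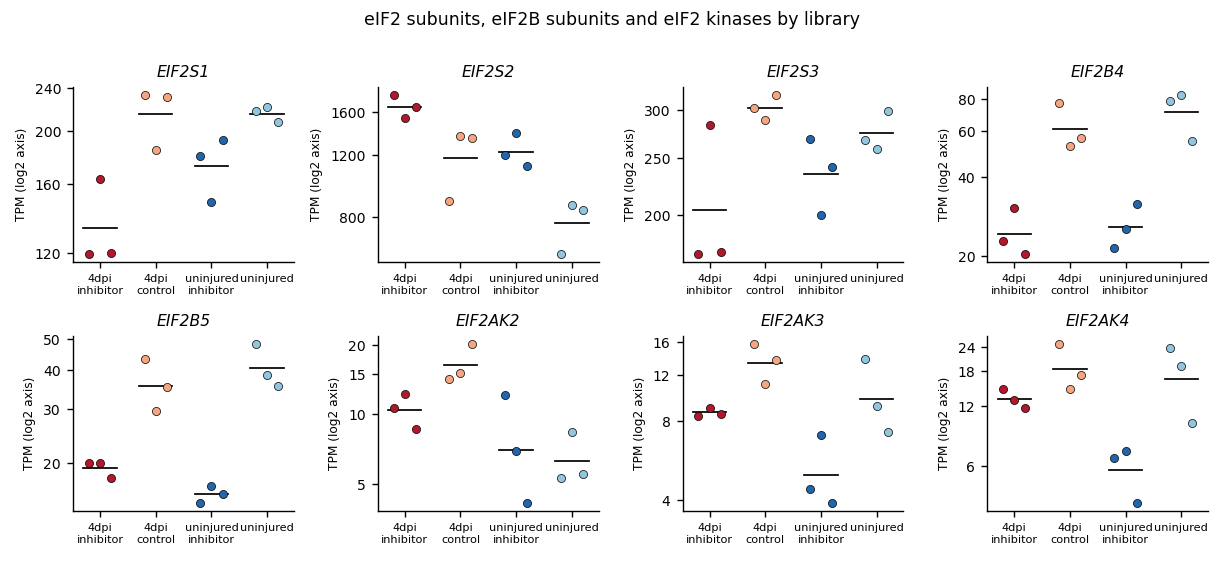
TPM of the 3 eIF2 subunits, 2 eIF2B subunits and 3 eIF2 kinases in each of the 12 libraries (log2 axis, points are libraries, bars geometric means, groups left to right 4dpi inhibitor, 4dpi control, uninjured inhibitor and uninjured). EIF2S2 is higher with the inhibitor in both injury states while EIF2S1, EIF2B4 and EIF2B5 are lower in TPM, and EIF2AK2 is highest in 4dpi control cords.

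EIF5A, the factor that carries hypusine and helps ribosomes past stalled stretches, had 711, 713 and 644 TPM in uninjured inhibitor cords against 432, 434 and 519 TPM in uninjured cords. EIF5A libraries did not overlap, and the log2 fold change was 0.58 ± 0.18 in TPM (adjusted p = 0.0151) and 1.53 scaled (adjusted p = 0.00512). The TPM call was lost without uninjured inhibitor replicate 5 (adjusted p = 0.0525). In injured cords it had 794, 775 and 776 TPM with the inhibitor against 499, 730.4 and 675 TPM with the control. EIF5A libraries did not overlap, and the log2 fold change was 0.32 ± 0.18 in TPM (adjusted p = 0.206) and 0.96 scaled (adjusted p = 0.141). EIF6, which keeps the large ribosomal subunit from joining too early, had 166, 210.5 and 130.0 TPM in uninjured inhibitor cords against 127, 122 and 148 TPM in uninjured cords. EIF6 libraries overlapped, and the log2 fold change was 0.33 ± 0.23 in TPM (adjusted p = 0.218) and 1.28 scaled (adjusted p = 0.0125). EIF6 had 269.6, 256 and 259.8 TPM in 4dpi inhibitor cords against 153, 249.6 and 216 TPM in 4dpi control cords. EIF6 libraries did not overlap, and the log2 fold change was 0.37 ± 0.23 in TPM (adjusted p = 0.24) and 1.01 scaled (adjusted p = 0.128). EIF5B, the GTPase of subunit joining, had 185, 175 and 266 TPM in uninjured inhibitor cords against 133, 167 and 216 TPM in uninjured cords. EIF5B had 217, 323 and 225 TPM in 4dpi inhibitor cords against 217, 353 and 337 TPM in 4dpi control cords. Its groups overlapped in both pairs, and it passed only scaled in uninjured cords. EIF5B libraries overlapped, and the log2 fold change was 0.28 ± 0.27 in TPM (adjusted p = 0.373) and 1.23 scaled (adjusted p = 0.0316), a scaled call lost without uninjured inhibitor replicate 5 or 7 or uninjured replicate 1.

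Injury was compared in 2 ways, with the control inhibitor (4dpi control against uninjured) and with the miR-200a inhibitor (4dpi inhibitor against uninjured inhibitor). No member passed in either, in TPM or scaled. In the first, 4dpi control cords had received a control inhibitor, and whether uninjured cords were injected is not known. Injury and injection therefore cannot be told apart there. In 4dpi control against uninjured, 0.904% of all genes passed in TPM and 0.977% scaled. At an unadjusted p under 0.05, 7 members were higher and 1 lower in TPM, beside 7.38% and 2.82% of all genes, and 2 were higher and 2 lower scaled, beside 5.62% and 5.55%. The median member was 0.16 in TPM, beside -0.08 over all genes, and 7 members lay above and 2 below the uninjured libraries, against 7.85% and 1.88% of all genes. EIF2AK2 had the highest log2 fold change, with 14.2, 15.0 and 20.2 TPM in 4dpi control cords against 5.30, 8.35 and 5.53 TPM in uninjured cords. EIF2AK2 libraries did not overlap, and the log2 fold change was 1.36 ± 0.37 in TPM (adjusted p = 0.147) and 1.40 scaled (adjusted p = 0.217). EIF5B followed with 217, 353 and 337 TPM in 4dpi control cords against 133, 167 and 216 TPM in uninjured cords. EIF5B libraries did not overlap, and the log2 fold change was 0.81 ± 0.27 in TPM (adjusted p = 0.277) and 0.85 scaled (adjusted p = 0.459). Next was EIF4E with 116, 193 and 178 TPM in 4dpi control cords against 93.6, 109.7 and 89.8 TPM in uninjured cords. EIF4E libraries did not overlap, and the log2 fold change was 0.70 ± 0.23 in TPM (adjusted p = 0.27) and 0.74 scaled (adjusted p = 0.447). Without 4dpi control replicate 1, 1 member was higher in TPM, beside 1.5% of all genes. At the other end EIF4G3 had a log2 fold change of -0.92, EIF4A2 one of -0.61 and EIF3C one of -0.39.

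In 4dpi inhibitor against uninjured inhibitor, 0.622% of all genes passed in TPM and 1.28% scaled. At an unadjusted p under 0.05, 8 members were higher and 4 lower in TPM, beside 17.4% and 3.37% of all genes, and 3 were higher and 8 lower scaled, beside 12.3% and 9.73%. The members' median of 0.20 in TPM was under the 0.28 of all genes, and 17 members lay above and 4 below, against 29.6% and 9.51% of all genes. The highest was EIF4B with 76.3, 75.7 and 61.6 TPM in 4dpi inhibitor cords against 26.1, 76.3 and 11.2 TPM in uninjured inhibitor cords, where replicate 6 of the uninjured inhibitor group reached the injured level. EIF4B libraries overlapped, and the log2 fold change was 1.33 ± 0.53 in TPM (adjusted p = 0.19) and 1.06 scaled (adjusted p = 0.203). EIF2AK4 had 14.7, 12.9 and 11.7 TPM in 4dpi inhibitor cords against 6.63, 7.15 and 3.93 TPM in uninjured inhibitor cords. EIF2AK4 libraries did not overlap, and the log2 fold change was 1.17 ± 0.36 in TPM (adjusted p = 0.117) and 0.91 scaled (adjusted p = 0.112). EIF4G1 libraries did not overlap, and the log2 fold change was 0.91 ± 0.39 in TPM (adjusted p = 0.215) and 0.64 scaled (adjusted p = 0.278). The lowest was EIF1B, with 287, 211 and 185 TPM in 4dpi inhibitor cords against 432, 309 and 538 TPM in uninjured inhibitor cords. EIF1B libraries did not overlap, and the log2 fold change was -0.89 ± 0.28 in TPM (adjusted p = 0.119) and -1.16 scaled (adjusted p = 0.11). EIF4EBP1 libraries did not overlap, and the log2 fold change was -0.68 ± 0.22 in TPM (adjusted p = 0.139) and -0.95 scaled (adjusted p = 0.121). Without uninjured inhibitor replicate 6, 3 members were higher and 1 lower in TPM, beside 7.16% and 0.586% of all genes, and 3 were higher and 2 lower scaled, beside 7.67% and 3.41%.

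The interaction, which asks whether the inhibitor difference differs between injured and uninjured cords, passed for no member on either scale, beside 0.0434% of all genes in TPM and 0.0289% scaled. At an unadjusted p under 0.05, 2 members were positive and 2 negative in TPM, beside 6.58% and 1.59% of all genes, and 0 and 2 scaled, beside 6.42% and 3.19%. EIF4B had the highest value (1.70 ± 0.75 in TPM, adjusted p = 0.587, and 1.39 scaled, 0.523), then EIF3C and EIF2AK4, and EIF1B the lowest (-0.98 ± 0.39 in TPM, adjusted p = 0.587, and -1.29 scaled, 0.514). Without uninjured inhibitor replicate 6, 2 members were positive scaled, beside 1.25% of all genes. The smaller fold changes in injured than in uninjured cords were therefore not shown to differ.

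Injury and inhibitor together were compared with uninjured cords (4dpi inhibitor against uninjured), where the uninjured libraries are those already used above. Whether these uninjured cords were injected is not known, so injection cannot be told apart from injury and inhibitor here. In TPM, 8 members were higher and 16 lower, while 9.39% of all genes were higher and 31.2% lower. Scaled, 15 were higher and 2 lower, while 16.6% of all genes were higher and 12% lower. On both scales EIF1AX, EIF2S2, EIF3E, EIF3K, EIF3M, EIF4E, EIF5A and EIF6 rose and EIF2B4 and EIF3C fell. EIF3M had 675, 518 and 621 TPM in 4dpi inhibitor cords against 237, 237 and 314 TPM in uninjured cords. EIF3M libraries did not overlap, and the log2 fold change was 1.21 ± 0.22 in TPM (adjusted p = 0.00284) and 1.89 scaled (adjusted p = 0.00462). EIF2S2 had 1787, 1531 and 1650.2 TPM in 4dpi inhibitor cords against 629.8, 867 and 841 TPM in uninjured cords. EIF2S2 libraries did not overlap, and the log2 fold change was 1.10 ± 0.20 in TPM (adjusted p = 0.00321) and 1.78 scaled (adjusted p = 0.00654). EIF1AX, EIF4E and EIF6 were the 3 higher members called here and not in uninjured inhibitor cords in TPM, a difference between comparisons that was not tested. EIF1AX libraries did not overlap, and the log2 fold change was 0.92 ± 0.25 in TPM (adjusted p = 0.0153) and 1.59 scaled (adjusted p = 0.00724). EIF6 had 269.6, 256 and 259.8 TPM in 4dpi inhibitor cords against 127, 122 and 148 TPM in uninjured cords. EIF6 libraries did not overlap, and the log2 fold change was 0.99 ± 0.23 in TPM (adjusted p = 0.00703) and 1.67 scaled (adjusted p = 0.00516). EIF4E had 179, 201 and 196 TPM in 4dpi inhibitor cords against 93.6, 109.7 and 89.8 TPM in uninjured cords. EIF4E libraries did not overlap, and the log2 fold change was 0.98 ± 0.23 in TPM (adjusted p = 0.00793) and 1.66 scaled (adjusted p = 0.00568). Among the lower members EIF3F, a subunit with an MPN domain, had 417, 493 and 411 TPM in 4dpi inhibitor cords against 842, 763 and 794 TPM in uninjured cords. EIF3F libraries did not overlap, and the log2 fold change was -0.86 ± 0.18 in TPM (adjusted p = 0.00476) and -0.18 scaled (adjusted p = 0.647). EIF3C and EIF3I had log2 fold changes of -2.19 and -1.25 in TPM. Without 4dpi inhibitor replicate 5, 7 or uninjured replicate 1 the count of lower members in TPM was 9, 7 or 9 in place of 16, beside 16.9%, 14.9% and 18.1% of all genes. Scaled, 9, 9 or 8 members were higher in these fits in place of 15, beside 11.2%, 10.6% and 12.3% of all genes. The calls of EIF1AX in TPM, and of EIF2B4 and EIF3C scaled, were lost without 4dpi inhibitor replicate 7 (adjusted p = 0.055, 0.0867 and 0.0727), and also without 4dpi inhibitor replicate 5 for EIF1AX and EIF2B4 and without replicate 6 for EIF3C.

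Other translation genes were read from lists, by counts in uninjured inhibitor against uninjured cords, where 7.39% of all genes were higher and 51.1% lower in TPM and 19.4% higher and 17.8% lower scaled. Of 83 cytosolic ribosomal proteins, 70 were higher and 4 lower in TPM and 75 higher and 1 lower scaled. In 4dpi inhibitor against 4dpi control, 19 were higher and 3 lower in TPM, beside 0.629% and 3.19% of all genes. Scaled, none passed in that comparison, nor did any other gene. Of 9 elongation factors, 1 was higher and 5 lower in TPM, and 2 were higher and 4 lower scaled. EEF2, the translocase, had a log2 fold change of -1.61 ± 0.29 in TPM, adjusted p = 0.00209, and -0.67 scaled, adjusted p = 0.0402. EEF2K, the kinase that blocks it, had -4.00 ± 0.69 in TPM, adjusted p = 0.00188, and -3.14 scaled, adjusted p = 0.00351. Of 11 tested initiation cofactors with other names, 2 were higher and 8 lower in TPM, and 3 were higher and 3 lower scaled. MCTS1, which acts in re-initiation, was higher (1.18 ± 0.23 in TPM, adjusted p = 0.00244, and 2.13 scaled, adjusted p = 0.00287). PDCD4, a blocker of eIF4A, was lower (-1.80 ± 0.27 in TPM, adjusted p = 0.00177, and -0.85 scaled, adjusted p = 0.0275). LARP1, which binds mRNAs of ribosomal proteins, was lower as well (-4.39 ± 0.86 in TPM, adjusted p = 0.00261, and -3.64 scaled, adjusted p = 0.00671).

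Of 15 regulators in mTOR signaling and eIF2 dephosphorylation, 1 was higher and 12 lower in TPM, and 2 were higher and 6 lower scaled. TSC1, a brake on mTOR, fell (-2.19 ± 0.36 in TPM, adjusted p = 0.00182, and -1.27 scaled, adjusted p = 0.00707). MKNK2, a kinase of eIF4E, fell (-3.79 ± 0.65 in TPM, adjusted p = 0.00188, and -2.96 scaled, adjusted p = 0.00456), and so did PPP1R15B, which directs a phosphatase to eIF2α (-2.87 ± 0.59 in TPM, adjusted p = 0.00302, and -1.95 scaled, adjusted p = 0.0122). Of 12 tested genes among ATF4 and its targets, which rise when eIF2 is phosphorylated, none was higher and 8 lower in TPM, and 2 were higher and 3 lower scaled. ATF4 itself was -0.88 in TPM (adjusted p = 0.00817) and 0.07 scaled, and SLC3A2, an amino acid transporter subunit, was lower on both scales (-2.48 ± 0.32 in TPM, adjusted p = 0.00145, and -1.53 scaled, adjusted p = 0.00301). Of 20 cytosolic tRNA synthetases, 1 was higher and 15 lower in TPM, and 2 were higher and 1 lower scaled. Of 4 termination and recycling genes none was higher and 1 lower in TPM, and 1 was higher and none lower scaled. Of 6 mitochondrial initiation and elongation genes 2 were higher and 1 lower in TPM, and 3 were higher and none lower scaled.

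Markers of cell types were counted in the same comparison, beside the same shares of all genes. These were 7.39% higher and 51.1% lower in TPM and 19.4% higher and 17.8% lower scaled. In uninjured inhibitor against uninjured cords, 10 of 15 neuron markers were lower in TPM and 6 scaled, with none higher. Summed neuron markers ran between 2525 and 3581 TPM in uninjured inhibitor cords against 2613 to 14880 TPM in uninjured cords. Of 13 skeletal muscle markers 12 were lower in TPM and 5 scaled, with sums of 3643 to 8805 TPM in uninjured inhibitor cords against 10977 to 45671 TPM in uninjured cords. Of 12 ependymoglia markers none was higher and 7 lower in TPM, and 2 were higher and 2 lower scaled. Of 11 markers of microglia and macrophages 5 were higher and 1 lower in TPM, and 9 were higher and none lower scaled, with sums of 868 to 1046 TPM in uninjured inhibitor cords against 795 to 1408 TPM in uninjured cords. Of 6 tested granulocyte markers 3 were higher in TPM and 4 scaled, with none lower. Summed granulocyte markers ran between 654 and 767 TPM in uninjured inhibitor cords against 88.5 to 110 TPM in uninjured cords. Of 8 oligodendrocyte markers 3 were lower in TPM and 1 scaled, and of 8 skin markers 6 and 1, with none higher. Of 5 tested erythroid markers 1 was higher and 2 lower in TPM, and 1 higher and none lower scaled. Of 7 cartilage and notochord markers none was higher and 2 lower in TPM, and 2 were higher and 1 lower scaled. The part of these cell types in the values of the initiation factors was not tested.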

How the data were processed

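RNA was measured in 12 spinal cord libraries, grouped by their labels. By the study's methods and notes, the authors assembled pooled reads de novo, named contigs by the best BLASTX hit to human proteins, aligned reads with Bowtie 0.12.1, estimated expression with RSEM 1.1.6 and tested counts with DESeq2 1.16.1. Values of contigs with the same human symbol were summed, so paralogs with the same best hit share a value. TPM were used as deposited by the authors. All libraries have the same total, depth is unknown and counting intervals are not given. Symbols turned into dates were restored (25 genes), and 0 columns lacked a sample. The RefSeq axolotl gene table, used for names only, held 48 of the 52 symbols. It lacked EIF2AK2, EIF2S3L, EIF3C and EIF5A, and it held EIF3CL.

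The limma package (3.58.1, R 4.3.3) was fitted to log2(TPM + 0.1) with 1 term per group, a trend on mean level and 8 residual degrees of freedom. It tested 13824 genes whose mean reached 1 TPM (1267 did not). P-values were adjusted by Benjamini-Hochberg, with a threshold of 0.05. The fit was also run on simulated data in which a small set of genes was changed. Those data lack the shift of the median gene between groups seen here, so they cannot show how the fit behaves under it. Fold changes of low genes are understated by the added 0.1. Scaling used median-of-ratios factors over 13002 genes above 0 in every library. Alternatives were an added 1 TPM, no minimum or a mean of 5 TPM, this scaling, a block by replicate number, the compared groups alone, and libraries left out.

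Values in every library were printed for members that passed (up to 8 per comparison by smallest p), the top 5 by mean, the 3 highest and 3 lowest log2 fold changes per comparison, and 12 chosen genes, EIF2S1, EIF2AK2, EIF2AK3, EIF2AK4, EIF2B5, EIF4E, EIF4EBP1, EIF4G1, EIF4A1, EIF4A2, EIF5A and EIF6. EIF3H, EIF1AX and EIF4G3 values, the other translation genes named by role, the ratios and the comparison with scaling factors were chosen after values were seen. Members, lists and tests were chosen with earlier results of these data known.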

Additional observations from a re-analysis of the deposited data

How the results depend on the processing

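Counts of changed members moved with the scaling, and the cause was not tested. Under median-of-ratios scaling, uninjured inhibitor against uninjured gave 20 higher and 5 lower members in place of 7 and 19 in TPM, 4dpi inhibitor against uninjured gave 15 and 2 in place of 8 and 16, and 4dpi inhibitor against 4dpi control gave 0 lower in place of 3. With both libraries numbered 1 left out and scaled, these were 18 and 5, 14 and 3, and 0 lower, and 2 members were lower in 4dpi inhibitor against uninjured inhibitor, beside 18.5% and 13.8%, 16.3% and 10.5%, 0.00723% and 3.22% of all genes. For 4dpi inhibitor against 4dpi control, TPM gave 0 lower without both libraries numbered 1, 1 lower with no minimum, 1 higher and 8 lower at a mean of 5 TPM, and 12 lower with only the groups compared, beside 0.0217%, 0.755%, 2.18% and 11.6%, and 16.1% of all genes in the same fits. Most libraries of the same replicate number did not deviate together: r ran between -0.307 and 0.507, with 3 of 11 pairs over 0.1. The other 43 pairs lay between -0.408 and 0.387. The highest r of all, 0.507, was between both libraries numbered 1 (4dpi control and uninjured). Number 1 occurred only in groups without the miR-200a inhibitor and number 7 only in groups with it, so numbers and inhibitor are partly confounded. A replicate block gave 1 higher member in 4dpi control against uninjured, 5 higher and 1 lower in 4dpi inhibitor against uninjured inhibitor, and 10 lower in 4dpi inhibitor against uninjured, beside 2.69%, 13% and 3.17%, and 23.5% of all genes. With the replicate block and scaling, higher and lower members were 1 and 0 in 4dpi inhibitor against 4dpi control, 11 and 0 in uninjured inhibitor against uninjured, 1 higher in 4dpi control against uninjured, 1 and 2 in 4dpi inhibitor against uninjured inhibitor, and 13 and 1 in 4dpi inhibitor against uninjured, beside 1.56% and 0.137%, 11.8% and 3.2%, 2.99%, 4.93% and 5.06%, and 12.7% and 6.48% of all genes.

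Leaving out each library in turn, over both scales, gave 0 to 2 higher and 0 to 11 lower members in 4dpi inhibitor against 4dpi control, 5 to 23 and 2 to 20 in uninjured inhibitor against uninjured, 0 to 1 higher in 4dpi control against uninjured, 0 to 3 and 0 to 2 in 4dpi inhibitor against uninjured inhibitor, 7 to 17 and 0 to 17 in 4dpi inhibitor against uninjured, and 0 to 2 positive in the interaction. Summed levels were 15207, 10400, 17191 and 8781 after scaling in 4dpi inhibitor, 4dpi control, uninjured inhibitor and uninjured cords, and 14927, 14538, 14248 and 12543 TPM when ribosomal proteins are taken out of the total. Every change of sign given next was on scaled values. The ranges with a library left out run over the fits on both scales, with the negative end from TPM and the other end from scaled values. Leaving out a library did not by itself turn EIF1, EIF1AD or EIF4EBP2, which stayed negative in TPM and positive scaled in all such fits. Members called in TPM that turned sign in uninjured inhibitor against uninjured were EIF1 (0.43 scaled, 0.12 scaled with the replicate block, 0.32 scaled without libraries numbered 1, -0.61 to 0.52 with a library left out), EIF1AD (0.23 scaled, 0.076 scaled without libraries numbered 1, -0.90 to 0.44), EIF2AK3 (0.064 with scaling and block, 0.027 scaled without libraries numbered 1, -1.21 to 0.10), EIF2D (0.12 with scaling and block, -1.28 to 0.38), EIF4EBP2 (0.18 scaled, 0.16 scaled with the block, 0.010 scaled without libraries numbered 1, -0.86 to 0.33), EIF4G2 (0.19 with scaling and block, 0.015 scaled without libraries numbered 1, -1.30 to 0.10) and, with a library left out, EIF3I (-1.10 to 0.089). In 4dpi inhibitor against uninjured these were EIF4G1 (0.12 with scaling and block), and with a library left out EIF2S1 (-0.85 to 0.13), EIF3D (-0.91 to 0.019) and EIF4A2 (-0.93 to 0.073). EIF2S1 in uninjured inhibitor against uninjured, which passed neither in TPM nor scaled, ranged from -0.40 to 0.82 with a library left out, and passed scaled without uninjured inhibitor replicate 6 (0.82) or uninjured replicate 2 (0.78).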
